A study of Mus musculus with 16 samples.

Results

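The genes described here are 35 transcriptional targets of p53 in mouse epidermis, out of 49585 genes in the deposited count table. They were picked by symbol as known p53 targets, with the core feedback genes and the BCL2 family left aside. The choice was made with earlier results of these data known, which limits any comparison of the members with all genes. Each member was found in the table through its Ensembl identifier. All 35 members passed the low-count filter of the statistical model, which tested 17741 genes. The members were sorted by role into growth restraint, cell cycle control, death receptors, apoptosis and autophagy, nucleotide supply and lesion bypass, metabolism and redox, and a small remainder.

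RNA was sequenced from heat-separated epidermis of SKH-1 mice aged 8 to 12 weeks. SKH-1 is a hairless strain in which skin can be irradiated without shaving. The design crossed genotype with ultraviolet B (UVB), with 4 libraries in each of 4 groups: unexposed K5Cre control, K5Cre control collected 6 h after 100 mJ/cm2 of UVB, unexposed epidermal C/EBPβ knockout, and the same knockout collected 6 h after 100 mJ/cm2 of UVB. K5Cre names a Cre recombinase under the keratin 5 promoter, which is active in basal keratinocytes, so the controls carry Cre. The labels do not name the driver of the deletion in the knockouts. C/EBPβ is a basic leucine zipper transcription factor encoded by Cebpb. The labels do not say which libraries came from separate animals, and the p-values therefore reflect library-to-library spread, part of which may be technical.

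Library totals ran from 33.0 to 53.3 M counts. The targeted gene Cebpb read 155 to 186 CPM (the usual read count relative to library size, adjusted by the TMM scaling factor of each library) in unexposed controls and 253 to 320 CPM in exposed controls, against 0.177 to 0.875 CPM and 0.609 to 3.03 CPM in the corresponding knockout groups. The 7 keratinocyte markers summed to between 28300 and 71700 CPM in every library, while fibroblast, endothelial and skeletal muscle markers summed to at most 10, 4.76 and 1.11 CPM. Exposed control libraries 1, 3 and 4 stood apart from the rest. Between 75.6% and 76.7% of their small counts (the 100 whole numbers from 2 up) were even, against 62.3% to 69.7% in the other 13 libraries, and they held 17086 to 18095 detected genes, against 18544 to 22001 in the others. Mitochondrial transcripts made up 8.57% to 9.65% of their counts and 5.24% of the counts of exposed control library 2, but this measure did not set them apart from the other groups, since unexposed control library 3 held 8.57% and unexposed knockout library 4 held 10.18%. The exposed control results were therefore also taken with library 2 standing alone for its group, a setting chosen after seeing the data. Its values are given as ranges over the called members, and gene by gene mostly where a call was lost. In that setting library 2 is assumed to vary like the other groups.

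p53, encoded by Trp53, is a transcription factor that is stabilised when DNA is damaged. It binds response elements made of a pair of half-sites and raises genes that halt the cell cycle, restrain growth signalling, supply nucleotides and lesion-bypass polymerases, or start cell death. UVB forms pyrimidine photoproducts in keratinocyte DNA, and p53 in the epidermis is known for its part in cell cycle arrest and in the death of damaged keratinocytes.

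RefSeq promoter windows, 250 bases before to 50 bases after a transcript start (GRCm38.p6), were found for 30 of the 35 members. The p53 half-site consensus, which reads the same on both strands, occurred without mismatch in the windows of 6 members (20% of 30), namely Gadd45a, Aen, Ei24, Rps27l, Sesn1 and Polk, and in 9.55% of 27025 genes with a window. A pair of perfect half-sites up to 13 bases apart was in the window of none of the members and of 0.074% of genes. With 1 mismatch allowed in each half-site, such a pair was in the windows of 3 members (10%), Rps27l, Gpx1 and Polk, and of 7.68% of genes. The stretches below are shown for 5 members whose transcript level changed after UVB, each on its gene's own strand, with the half-site or the pair in capitals. A match is a run of letters and not a measured binding site. The Rps27l (chr9:66946271-66946340, plus strand), Polk (chr13:96519373-96519437, minus strand) and Sesn1 (chr10:41887241-41887300, plus strand) stretches lie in introns of GENCODE M21, and those of Aen (chr7:78895927-78895956, plus strand) and Gadd45a (chr6:67037428-67037457, minus strand) lie at least partly in exons.
Rps27l: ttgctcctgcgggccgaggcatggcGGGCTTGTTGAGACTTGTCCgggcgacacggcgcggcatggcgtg
Polk: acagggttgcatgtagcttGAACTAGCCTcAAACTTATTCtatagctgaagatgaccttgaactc
Sesn1: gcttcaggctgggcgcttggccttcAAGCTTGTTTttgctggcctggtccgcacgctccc
Aen: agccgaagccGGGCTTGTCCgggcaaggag
Gadd45a: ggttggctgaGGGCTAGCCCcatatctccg

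The first question was which p53 targets respond to UVB in control epidermis and whether the same targets respond without C/EBPβ. In control epidermis 15 of the 35 members (42.9%) rose at an edgeR adjusted p under 0.05, against 17.7% of all genes tested, and 5 (14.3%) fell, against 18.0%. The median log2 fold change of the members was 0.42, against -0.02 over all genes. In knockout epidermis 13 members (37.1%) rose, against 18.1% of all genes, and 1 (2.86%) fell, against 14.1%, with a median of 0.18 over the members and 0.01 over all genes. The 2 UVB comparisons share no library. All 13 members that rose in knockouts also rose in controls, where they are 86.7% of those that rose: Aen, Btg2, Eda2r, Ei24, Epha2, Gpx1, Phlda3, Plk2, Rps27l, Sesn2, Sfn, Tnfrsf10b and Trp53inp1. Apaf1 and Polk passed the test in controls alone. Sesn1 fell in both genotypes, while Dram1, Fdxr, Gadd45a and Rrm2b passed as lower in controls alone. For 14 of the 15 that rose in controls, each exposed library lay above each unexposed one, Apaf1 being the exception. Neither such separation nor the sharing of calls between the genotypes was counted over all genes, so neither sets the members apart. With exposed control library 2 alone, the 15 members had log2 values from 0.24 (Apaf1) to 2.38 (Aen). The 5 that fell had values from -1.47 (Dram1) to -0.31 (Fdxr).

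**Figure D1:**
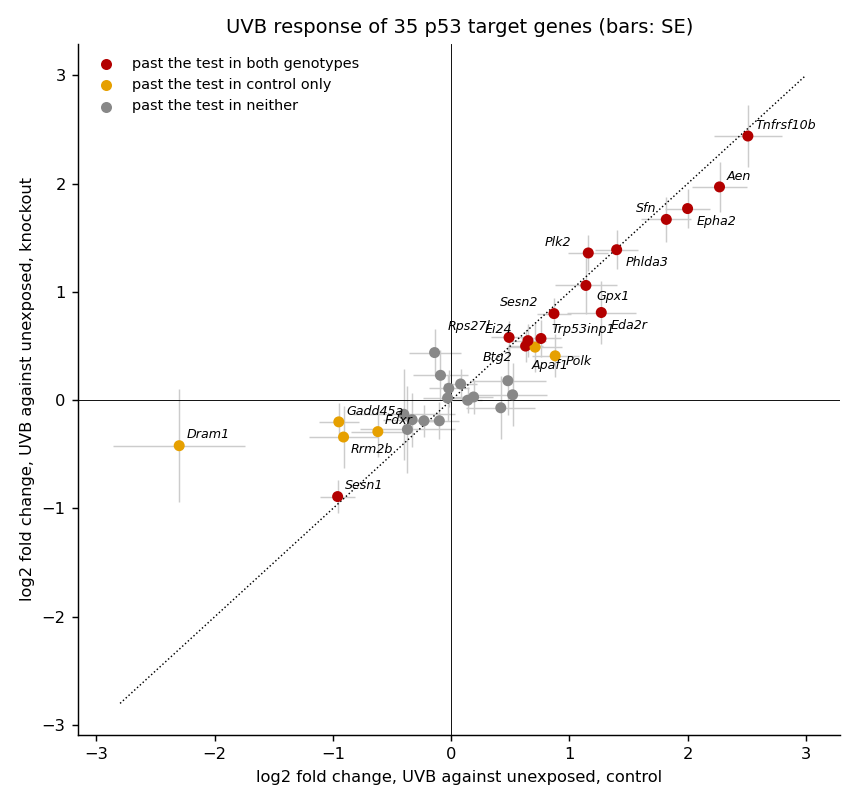
Log2 fold change after UVB in control epidermis (horizontal) and knockout epidermis (vertical) for the 35 members, with bars of 1 SE and a dotted line of equal change. The 13 members that rose in both genotypes reach up to Tnfrsf10b at 2.51 and 2.44, and Dram1 lies farthest to the left at -2.30 and -0.42. Of the 15 members that rose in controls, 13 had a smaller fitted change in knockouts and lie below the line. These 15 were picked by their control values, which by itself favours smaller values in knockouts. The matching share over all genes was not computed. Over all 35 members the fitted difference of responses was positive in 16. The difference of responses passed the test for none of the 35 members.

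Among the death receptors, which pass signals from ligands outside the cell to caspases or to NF-kappaB, Tnfrsf10b and Eda2r rose and Fas did not pass the test. Tnfrsf10b (ENSMUSG00000022074, chromosome 14, 69767472 to 69784411 of GRCm38), the mouse receptor for the ligand TRAIL, read 4.80, 6.73, 6.04 and 5.90 CPM in unexposed control libraries 1 to 4 and 48.9, 26.5, 34.3 and 24.1 CPM in exposed control libraries 1 to 4. Every exposed library was above every unexposed one. Its means were 5.87 ± 0.798 and 33.5 ± 11.2 CPM (SD, n = 4), a 5.70-fold rise (log2 fold change 2.51, SE 0.29, edgeR adjusted p = 1.41e-06), the largest among the members. In knockouts Tnfrsf10b went from 4.65, 3.01, 5.29 and 6.81 CPM to 17.7, 21.5, 23.8 and 43.6 CPM, a 5.41-fold rise (log2 2.44, SE 0.29, adjusted p = 2.97e-06).

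Eda2r (ENSMUSG00000034457, chromosome X, 97333840 to 97377216), a receptor for ectodysplasin A2, read 4.43, 5.98, 5.13 and 6.32 CPM in unexposed controls and 18.9, 10.2, 11.1 and 12.6 CPM in exposed controls. The groups did not overlap, and the rise was 2.41-fold (log2 1.27, SE 0.29, edgeR adjusted p = 0.00165). The log2 value was 0.90 with exposed control library 2 alone (adjusted p = 0.143). In knockouts it went from 2.56, 2.90, 4.71 and 3.69 CPM to 5.34, 3.51, 6.26 and 9.24 CPM. Those groups overlapped, and the rise of 0.81 on the log2 scale (SE 0.29, adjusted p = 0.0358) was lost without any of 5 libraries, unexposed knockouts 1, 2 and 4 and exposed knockouts 3 and 4 (adjusted p between 0.0651 and 0.26). Eda2r was also not called in knockouts by limma voom, with upper-quartile factors, without the low-count filter or with only the 2 groups fitted. Fas, the receptor for FasL, lay between 1.10 and 6.12 CPM over all 16 libraries, with log2 differences of -0.40 (SE 0.43) in controls and -0.13 (SE 0.42) in knockouts.

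**Figure D2:**
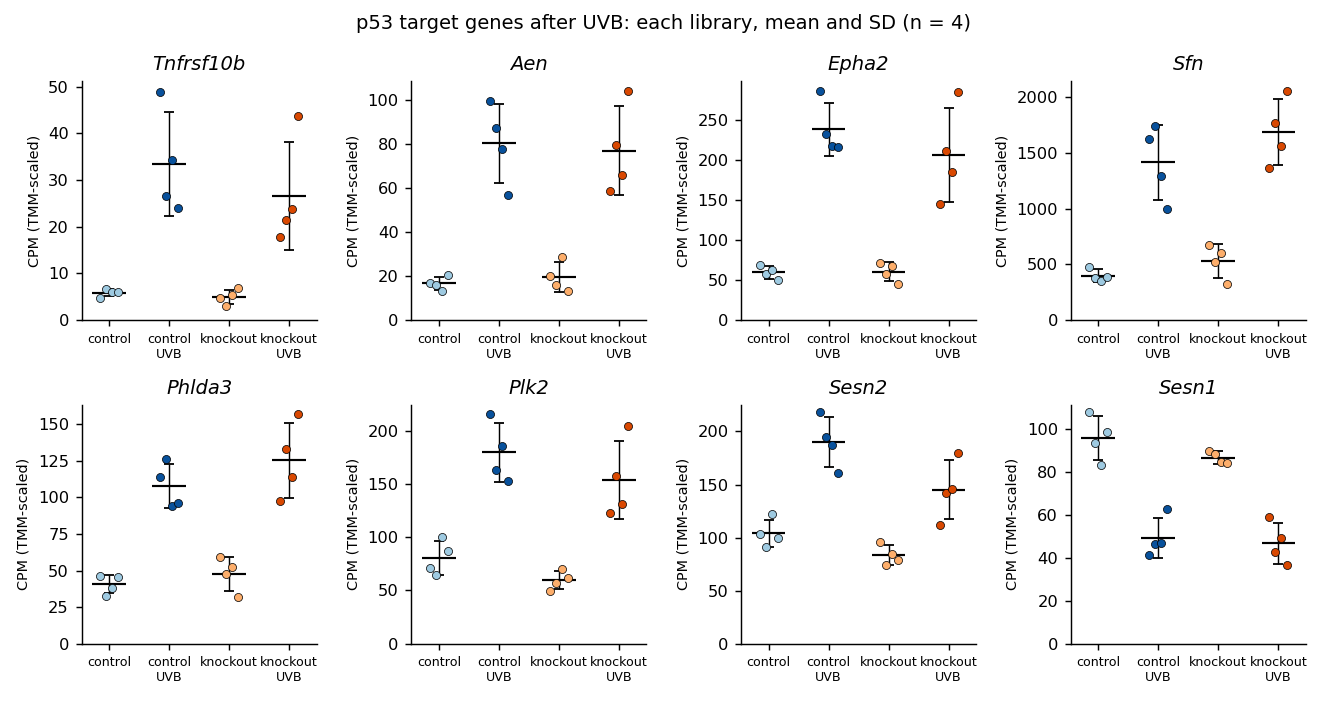
CPM of 8 members in each library (points), with the group mean (line) and SD (bars), in control and knockout epidermis without and with UVB; each panel has its own linear axis from 0. Tnfrsf10b, Aen, Epha2, Sfn, Phlda3, Plk2 and Sesn2 were higher in every exposed library than in any unexposed library of the same genotype, and Sesn1 was lower.

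Of the 9 genes of apoptosis, autophagy and survival, 5 (55.6%) rose and 1 (11.1%) fell in controls, against 17.7% and 18.0% of all genes, and 4 (44.4%) rose in knockouts, against 18.1%. Aen (ENSMUSG00000030609, chromosome 7, 78895854 to 78911209), an apoptosis-enhancing nuclease, read 16.9, 16.1, 13.3 and 20.4 CPM in unexposed controls and 99.4, 87.0, 77.8 and 57.0 CPM after UVB. The lowest exposed library was well above the highest unexposed one, and the rise was 4.81-fold (log2 2.27, SE 0.23, edgeR adjusted p = 3.81e-07). In knockouts Aen went from 20.2, 16.1, 28.7 and 13.2 CPM to 58.4, 79.6, 66.0 and 104 CPM, which is 3.93-fold (log2 1.97, SE 0.23, adjusted p = 2.59e-06). This is a gene whose window holds a single half-site, printed above.

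Phlda3 (ENSMUSG00000041801, chromosome 1, 135766119 to 135769136), a pleckstrin homology protein that restrains AKT signalling, read 46.2, 32.9, 38.1 and 45.7 CPM in unexposed controls and 114, 126, 94.1 and 96.3 CPM after UVB. In knockouts it read 59.2, 47.4, 52.1 and 32.0 CPM and then 97.6, 133, 114 and 157 CPM. Neither genotype showed any overlap between exposed and unexposed libraries, and the rises were nearly equal, at 2.64-fold (log2 1.40, SE 0.18, edgeR adjusted p = 4.53e-06) and 2.63-fold (log2 1.39, SE 0.18, adjusted p = 6.97e-06).

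Trp53inp1 (ENSMUSG00000028211, chromosome 4, 11156431 to 11174379), a stress protein that acts with p53 and in autophagy, read 58.0, 61.0, 69.9 and 79.5 CPM in unexposed controls and 146, 114, 98.2 and 97.3 CPM after UVB (log2 0.76, SE 0.17, edgeR adjusted p = 0.00158). In knockouts it went from 66.1, 59.3, 66.7 and 61.0 CPM to 73.2, 74.9, 95.3 and 134 CPM (log2 0.57, SE 0.17, adjusted p = 0.0141). Exposed knockout library 4 was the highest by far, and without it the knockout value was 0.30 (adjusted p = 0.176). It also missed the threshold without unexposed knockout library 4 (adjusted p = 0.0551).

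Ei24, an endoplasmic reticulum protein needed for autophagy, rose by 0.65 in controls (SE 0.15, edgeR adjusted p = 0.0017) and 0.55 in knockouts (SE 0.15, adjusted p = 0.00666) on the log2 scale. The knockout call for Ei24 was lost without exposed knockout library 4 (log2 0.40, adjusted p = 0.0627). Exons of Ei24 overlap those of Gm26787 on the opposite strand, and the counting is not stated to use strand. Apaf1, the scaffold of the apoptosome, rose by 0.71 in controls (SE 0.23, adjusted p = 0.0191), from 7.50 to 11.1 CPM unexposed to 10.5 to 18.8 CPM exposed. That call was lost without unexposed control library 1 or 2 or exposed control library 4 (adjusted p = 0.0616, 0.0568 and 0.0733), and the log2 value of Apaf1 was 0.24 with exposed control library 2 alone (adjusted p = 0.70).

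Dram1 (ENSMUSG00000020057, chromosome 10, 88322804 to 88379080), a lysosomal membrane protein of autophagy, went the other way in controls. It read 5.64, 5.32, 5.28 and 5.55 CPM unexposed and 1.22, 1.97, 0 and 1.18 CPM after UVB, with no overlap. The exposed values rest on 44, 86, 0 and 34 counts, and a count of 0 allows up to 3 counts, or 0.0913 CPM in that library, for counting error alone. The fall was 2.30 on the log2 scale (log2 fold change -2.30, SE 0.56, edgeR adjusted p = 0.00334), and -1.47 with exposed control library 2 alone (adjusted p = 0.00895), still past the threshold. In knockouts Dram1 read 9.79, 7.36, 6.94 and 6.87 CPM unexposed and 4.26, 5.88, 5.90 and 7.04 CPM exposed, a log2 difference of -0.42 (SE 0.52) that did not pass. Perp, a desmosomal membrane protein, Pidd1, a death-domain adaptor, and Triap1, a mitochondrial survival protein, passed in no comparison. Perp read 2100 to 3770 CPM over the 16 libraries.

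Of the 7 genes of cell cycle, mitosis and RNA, 3 (42.9%) rose and 1 (14.3%) fell in controls, against 17.7% and 18.0% of all genes, and the same 3, Sfn, Plk2 and Btg2, rose in knockouts, against 18.1%. Sfn (ENSMUSG00000047281, chromosome 4, 133600556 to 133602168), which encodes stratifin, a keratinocyte adaptor that holds cells at the transition into mitosis, read 480, 382, 348 and 388 CPM in unexposed controls and 1630, 1740, 1290 and 1000 CPM after UVB. In knockouts it went from 674, 521, 601 and 327 CPM to 1370, 1770, 1560 and 2060 CPM. The lowest exposed library of each genotype was above the highest unexposed one, with rises of 3.54-fold (log2 1.82, SE 0.21, edgeR adjusted p = 1.13e-06) and 3.18-fold (log2 1.67, SE 0.21, adjusted p = 4.31e-06).

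Plk2 (ENSMUSG00000021701, chromosome 13, 110395046 to 110400844), a polo-like kinase induced under stress, read 70.8, 64.3, 100 and 86.6 CPM in unexposed controls and 216, 163, 186 and 153 CPM after UVB (2.23-fold, log2 1.16, SE 0.17, edgeR adjusted p = 2.06e-05). In knockouts it went from 49.8, 57.0, 70 and 61.9 CPM to 123, 157, 131 and 204 CPM (2.57-fold, log2 1.36, SE 0.17, adjusted p = 4.98e-06). The fitted rise of Plk2 was larger in knockouts than in controls, by 0.20 (SE 0.24, adjusted p = 0.95).

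Gadd45a (ENSMUSG00000036390, chromosome 6, 67035096 to 67037457), a growth arrest protein of the DNA damage response, fell in controls. It read 73.1, 57.1, 87.0 and 75.9 CPM unexposed and 40.2, 34.3, 44.7 and 32.5 CPM after UVB. The groups did not overlap, and the fall was 1.93-fold (log2 fold change -0.95, SE 0.17, edgeR adjusted p = 0.000166). In knockouts Gadd45a was already low without UVB, at 25.7, 27.9, 40.4 and 42.4 CPM, and read 28.6, 30.8, 26.4 and 32.6 CPM after it (log2 difference -0.20, not called). Its exons overlap E230016M11Rik on the opposite strand. Btg2, an antiproliferative cofactor of mRNA deadenylation, rose by 0.63 in controls (SE 0.15, adjusted p = 0.00258) and 0.50 in knockouts (SE 0.15, adjusted p = 0.0145). The knockout value of Btg2 without exposed knockout library 4 was 0.31 (adjusted p = 0.146), and its control value with exposed control library 2 alone was 0.38 (adjusted p = 0.207). Zmat3, a zinc finger RNA-binding protein, Plk3, a second polo-like kinase, and Psrc1, a spindle protein, did not pass in either genotype, with log2 differences between -0.19 and 0.19.

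The sestrins restrain mTORC1, a kinase complex that drives growth, and the pair moved in opposite directions. Sesn2 (ENSMUSG00000028893, chromosome 4, 132492032 to 132510501) read 103, 91.2, 122 and 99.4 CPM in unexposed controls and 218, 195, 187 and 161 CPM after UVB (1.83-fold, log2 0.87, SE 0.14, edgeR adjusted p = 5.85e-05). In knockouts it read 96.3, 74.4, 84.1 and 79.3 CPM and then 112, 142, 146 and 180 CPM (1.74-fold, log2 0.80, SE 0.14, adjusted p = 0.000182). All exposed libraries were above all unexposed ones within each genotype.

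Sesn1 (ENSMUSG00000038332, chromosome 10, 41809935 to 41908424) read 108, 93.8, 83.4 and 98.7 CPM in unexposed controls and 41.5, 46.4, 47.0 and 62.7 CPM after UVB. In knockouts it read 90.0, 88.6, 84.8 and 84.3 CPM and then 59.0, 42.6, 49.2 and 36.8 CPM. Exposed and unexposed libraries did not overlap, and the falls were 1.94-fold (log2 fold change -0.96, SE 0.15, edgeR adjusted p = 3.4e-05) and 1.85-fold (log2 fold change -0.89, SE 0.15, adjusted p = 8.93e-05). It was the member that fell in both genotypes. Ddit4, another inhibitor of mTORC1 signalling, gave log2 differences of -0.14 (SE 0.22) in controls and 0.44 (SE 0.22) in knockouts, neither of which passed.

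The 3 genes of nucleotide supply and lesion bypass did not move together. Polk (ENSMUSG00000021668, chromosome 13, 96480690 to 96542579), a polymerase that copies past bulky DNA lesions, read 18.3, 18.4, 21.7 and 20.2 CPM in unexposed controls and 55.0, 27.5, 32.7 and 29.9 CPM after UVB. Library 1 was the highest of the exposed libraries and all 4 were above the unexposed ones (1.84-fold, log2 0.88, SE 0.20, edgeR adjusted p = 0.0015). The log2 value of Polk was 0.60 without exposed control library 1 (adjusted p = 0.0116) and 0.48 with exposed control library 2 alone (adjusted p = 0.20). In knockouts Polk went from 17.4, 17.1, 18.8 and 19.4 CPM to 18.5, 19.5, 28.9 and 30 CPM, a difference of 0.41 (SE 0.20, adjusted p = 0.124).

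Rrm2b, the small subunit of the ribonucleotide reductase used outside S phase, fell in controls from 5.25 to 7.39 CPM unexposed to 2.13 to 5.05 CPM exposed (log2 fold change -0.91, SE 0.29, edgeR adjusted p = 0.0178). The adjusted p for Rrm2b was 0.0553 without unexposed control library 1 and 0.0971 with exposed control library 2 alone. Its exons overlap Gm49085 on the opposite strand. Polh, the polymerase that copies past ultraviolet pyrimidine dimers, lay between 4.43 and 13.3 CPM over all libraries and gave differences of -0.33 (SE 0.25) and -0.18 (SE 0.25).

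Of 7 genes of metabolism and redox, Gpx1 rose in both genotypes and Fdxr fell in controls. This 1 of 7 (14.3%) in each direction is near the share of all genes that rose (17.7% in controls, 18.1% in knockouts) or fell (18.0% in controls). Gpx1, a glutathione peroxidase that clears peroxides, read 276, 208, 157 and 172 CPM in unexposed controls and 500, 634, 318 and 339 CPM after UVB (log2 1.14, SE 0.26, edgeR adjusted p = 0.00223). In knockouts it read 558, 372, 358 and 221 CPM and then 606, 817, 881 and 849 CPM (log2 1.06, SE 0.26, adjusted p = 0.00397). Exposed libraries were above unexposed ones within each genotype. Fdxr, a mitochondrial ferredoxin reductase, fell by 0.62 in controls (log2 fold change -0.62, SE 0.23, adjusted p = 0.0386). The Fdxr groups overlapped, and the call was lost without unexposed control library 1, 3 or 4 or exposed control library 3 or 4 (adjusted p between 0.0665 and 0.114), by limma voom, and with exposed control library 2 alone (log2 -0.31, adjusted p = 0.585). Ak1, an adenylate kinase, Tigar, a sugar phosphatase of glycolysis, Dcxr, a carbonyl reductase, Ephx1, an epoxide hydrolase, and Pltp, a phospholipid transfer protein, did not pass in either UVB comparison. With exposed control library 2 alone Dcxr was called higher (log2 1.13, adjusted p = 0.0231), and that library held 7.57 CPM of it against 3.27 to 4.14 CPM in the other exposed controls.

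Epha2 and Rps27l rose among the 3 remaining targets, and Def6, a guanine nucleotide exchange factor, did not pass. Epha2 (ENSMUSG00000006445, chromosome 4, 141301240 to 141329384), a receptor tyrosine kinase for ephrin-A ligands at keratinocyte contacts, read 69.4, 57.0, 62.7 and 50 CPM in unexposed controls and 287, 233, 218 and 216 CPM after UVB. In knockouts it went from 71.9, 57.0, 68.0 and 44.9 CPM to 145, 211, 185 and 285 CPM. No exposed library reached down to the unexposed range, and the rises were 3.99-fold (log2 2.0, SE 0.19, edgeR adjusted p = 9.78e-08) and 3.41-fold (log2 1.77, SE 0.18, adjusted p = 6.35e-07). Rps27l, a ribosomal protein-like gene, rose by 0.49 in controls (SE 0.15, adjusted p = 0.0112) and 0.58 in knockouts (SE 0.15, adjusted p = 0.00391). It is a near copy of Rps27, so reads may have been split between them and its counts are uncertain, and the control call for Rps27l was lost without exposed control library 1 or 2 (adjusted p = 0.0625 and 0.0658).

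The other p53 pathway genes, kept as a separate list of 11, had 6 higher and 2 lower after UVB in controls and 7 higher and 2 lower in knockouts, with medians of 0.71 and 0.55. The higher ones were 54.5% and 63.6% of the list, against 17.7% and 18.1% of all genes, and the lower ones 18.2% in both, near the 18.0% and 14.1% of all genes. Cdkn1a, the inhibitor of cyclin-dependent kinases, rose by 1.84 (SE 0.18, edgeR adjusted p = 1.78e-07) and 1.62 (SE 0.18, adjusted p = 1.23e-06). Pmaip1, which encodes the BH3-only death protein NOXA, rose by 4.02 (SE 0.39, adjusted p = 1.7e-06) and 3.28 (SE 0.38, adjusted p = 1.13e-05), more than any of the 35 members. Mdm4, an inhibitor of p53, and Trp73, a p53 relative, fell in both genotypes. The transcript of p53 itself, Trp53, read 19.1 to 25 CPM in unexposed controls and 17.2 to 29.6 CPM after UVB, and in knockouts 14.7 to 26.2 CPM and then 25.2 to 40.0 CPM. It was called higher after UVB in knockouts (log2 0.65, SE 0.20, adjusted p = 0.0137) and not in controls (-0.07, SE 0.20), and the difference between these responses did not pass (0.72, SE 0.28, adjusted p = 0.783).

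Neutrophil markers summed to 43.8 to 123 CPM in unexposed and 373 to 628 CPM in exposed controls. In knockouts the sums were 58.1 to 123 CPM and then 189 to 334 CPM. Of 3 neutrophil markers tested, 2 were called higher after UVB in controls and 1 in knockouts. Of 6 Langerhans cell markers, 1 was higher and 1 lower in controls, and 1 higher in knockouts. Of 6 T cell markers, 1 was lower in controls and 1 higher in knockouts. In each genotype 1 of 5 melanocyte markers was higher and 1 of 7 keratinocyte markers was lower. The part of these markers in the UVB results was not tested. The neutrophil sums are of 5 genes and were not split by gene. Of these genes, Ly6g and Retnlg were at 0 in all unexposed control libraries. Ly6g was also at 0 in all unexposed and all exposed knockout libraries, and Retnlg in all exposed control libraries. In bulk tissue, fewer cells of a type and less RNA per cell cannot be told apart.

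Long and short members, by the span of a gene from first to last annotated base, are described with no test. The 17 members longer than the median member span of 16940 bases had a median log2 fold change of -0.03 in controls, and the 18 others 0.48. Over all genes split at the same length the medians were -0.22 and 0.25. In knockouts the members' medians were 0.00 and 0.33, and those of all genes -0.24 and 0.33. With the split at 30000 bases instead, long minus short members gave -0.77 in controls and -0.62 in knockouts, against -0.52 and -0.34 at the median span. At the median span, 7 of 17 longer and 8 of 18 shorter members were called higher in controls, and 5 and 8 in knockouts. At 30000 bases, 3 of 10 longer and 12 of 25 shorter members were called higher in controls, and 1 and 12 in knockouts. The shares of all long and all short genes called were not computed. Sesn1, which spans 98490 bases, fell in both genotypes, and Dram1 at 56277 bases and Rrm2b at 37367 bases fell in controls. Long members also rose, such as Eda2r at 43377 bases, and in controls Polk at 61890 bases and Apaf1 at 93460 bases. Gadd45a, at 2362 bases, and Fdxr, at 9027 bases, fell in controls although they are short.

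**Figure D3:**
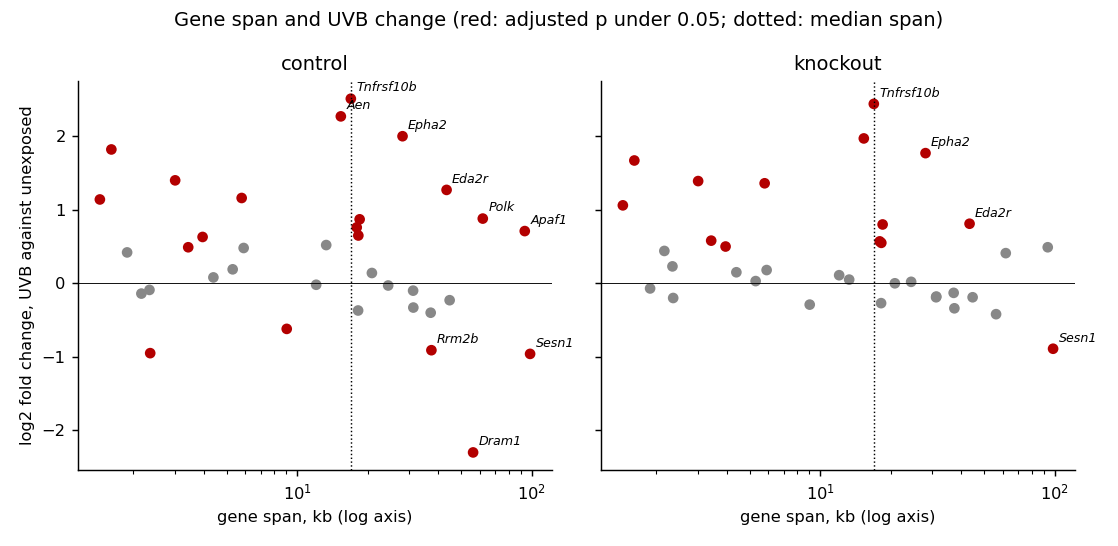
Log2 fold change after UVB (vertical) against gene span in kb (horizontal, log axis) for the 35 members in control (left) and knockout (right) epidermis, red where the adjusted p was under 0.05. The dotted line is the median span. In controls 7 of the 17 longer members rose and 3 fell, against 8 and 2 of the 18 others. Shares of all long and all short genes called were not computed, so these counts do not set the members apart.

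The second question was which p53 targets differ between knockout and control epidermis. Without UVB, 1 of 35 members (2.86%) was higher in knockouts, against 0.964% of all genes, and 1 (2.86%) was lower, against 1.14%. These were Ak1 and Gadd45a. The median over the members was -0.08, against 0.00 over all genes. None of the 11 other p53 pathway genes passed, among them Cdkn1a (-0.08, SE 0.18) and Mdm2 (-0.01, SE 0.15), the ubiquitin ligase that degrades p53.

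Gadd45a held 73.3 ± 12.3 CPM (SD, n = 4) in unexposed controls and 34.1 ± 8.53 CPM (n = 4) in unexposed knockouts. The highest knockout library, at 42.4 CPM, was below the lowest control library, at 57.1 CPM, and the difference was 2.15-fold (log2 fold change -1.10, SE 0.17, edgeR adjusted p = 0.00114). Leaving out any 1 of the 8 libraries gave values between -1.21 and -0.99 and an adjusted p of at most 0.00887. This comparison and the UVB comparison in controls share the unexposed control libraries, so the 2 differences of Gadd45a are not independent of each other. After UVB the difference was -0.36 (SE 0.17, adjusted p = 0.238).

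Ak1 (ENSMUSG00000026817, chromosome 2, 32621758 to 32635058), named after its values were seen, as were Dram1, Btg2 and Gpx1, read 3.33, 2.10, 4.16 and 4.33 CPM in unexposed controls and 10.3, 10.2, 10.6 and 7.56 CPM in unexposed knockouts. The groups did not overlap, and Ak1 was 2.78-fold higher in knockouts (log2 1.47, SE 0.29, edgeR adjusted p = 0.01). The adjusted p of Ak1 was at most 0.0404 when any 1 library was left out. After UVB the values were 7.62, 5.49, 3.41 and 3.34 CPM in controls and 12.8, 10.3, 9.94 and 7.06 CPM in knockouts. These groups overlapped, with a difference of 1.01 (SE 0.29, adjusted p = 0.0492).

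**Figure D4:**
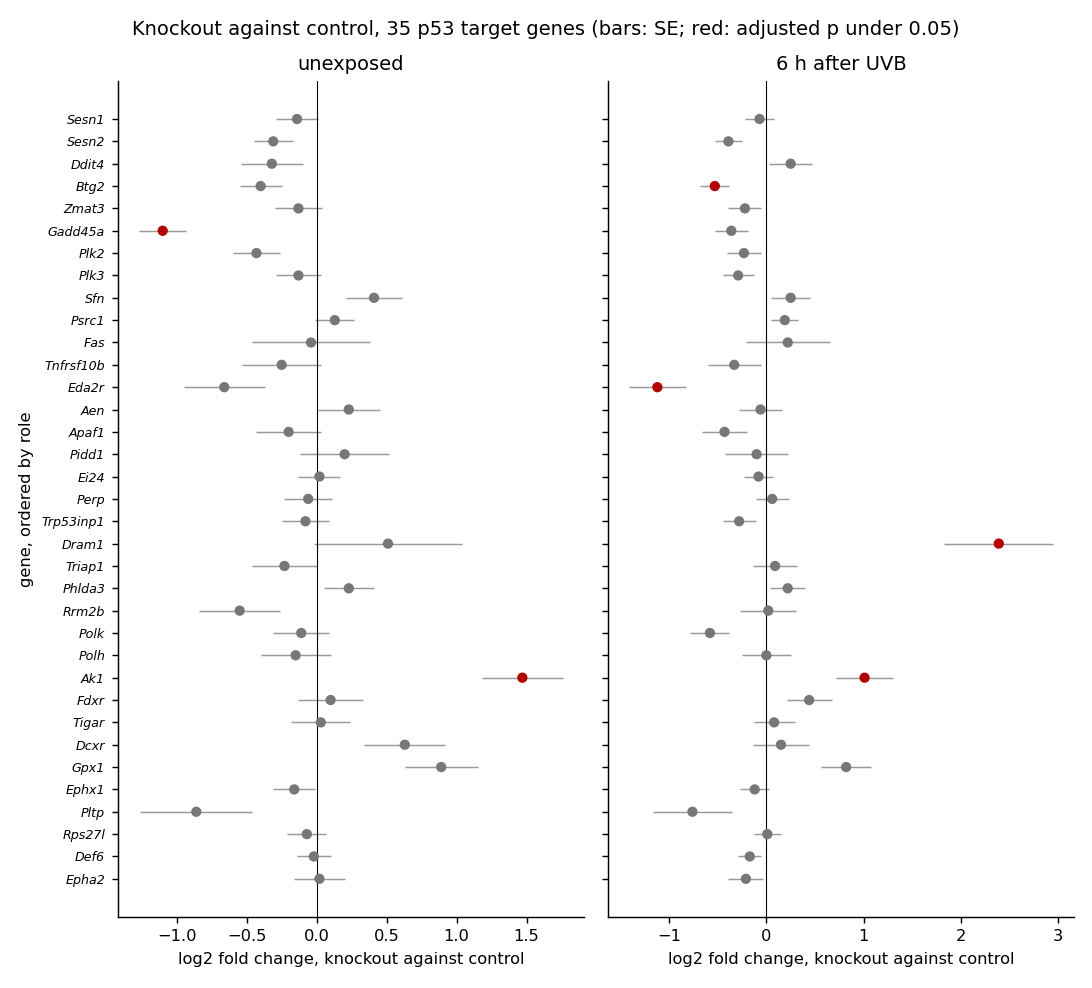
Log2 fold change of knockout against control for the 35 members, unexposed (left) and 6 h after UVB (right), each with its own horizontal axis, with bars of 1 SE and genes ordered by role from top to bottom. Red points are those past the test, Gadd45a at -1.10 and Ak1 at 1.47 unexposed, and Dram1 at 2.39, Ak1 at 1.01, Btg2 at -0.53 and Eda2r at -1.12 after UVB.

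After UVB, 2 members (5.71%) were higher in knockouts, against 2.36% of all genes, and 2 (5.71%) were lower, against 2.32%. The higher ones were Dram1 and Ak1, and the lower ones Btg2 and Eda2r. The median over the members was -0.07, against 0.04 over all genes. Dram1 was 5.23-fold higher in exposed knockouts (log2 2.39, SE 0.56, edgeR adjusted p = 0.0195), with 4.26 to 7.04 CPM against 0 to 1.97 CPM. Eda2r was lower by 2.17-fold (-1.12 on the log2 scale, SE 0.29, adjusted p = 0.0292), with 3.51 to 9.24 CPM against 10.2 to 18.9 CPM, and neither gene's groups overlapped. Btg2 was lower by 1.45-fold (-0.53 on the log2 scale, SE 0.15, adjusted p = 0.0481), with 88.9 to 136 CPM against 118 to 187 CPM, which overlapped.

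Each of these 4 calls was lost when certain single libraries were left out. No member passed in either direction when only the 2 exposed groups were fitted, or with exposed control library 2 alone, where the values were 1.53 for Dram1 (edgeR adjusted p = 0.0807), 0.84 for Ak1 (adjusted p = 0.495), -0.31 for Btg2 (adjusted p = 0.73) and -0.76 for Eda2r (adjusted p = 0.626). Dram1 was lost without exposed control library 1 (adjusted p = 0.0532) or exposed knockout library 2 (adjusted p = 0.0507). Eda2r was lost without exposed control library 1 or exposed knockout library 1, 2 or 3 (adjusted p between 0.0649 and 0.111). Btg2 was lost without exposed control library 1 or 3 or exposed knockout library 1, 2 or 3 (adjusted p between 0.119 and 0.152), and Ak1 without exposed control library 3 or 4 or exposed knockout library 1, 2 or 3 (adjusted p between 0.092 and 0.152). Ak1 also missed the threshold with upper-quartile factors (adjusted p = 0.0515), and Btg2 without the low-count filter (adjusted p = 0.0598).

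Gpx1 did not pass in edgeR, with knockout values of 0.89 unexposed (SE 0.26, adjusted p = 0.093) and 0.82 after UVB (SE 0.26, adjusted p = 0.0786), whereas DESeq2 called it in both (adjusted p = 0.00832 and 0.0212). With exposed control library 2 alone the exposed value of Gpx1 was 0.29. Langerhans cell markers summed to 213 to 444 CPM in unexposed controls and 361 to 679 CPM in unexposed knockouts, and to 314 to 477 CPM and 609 to 776 CPM after UVB, where 3 of the 6 markers were called higher in knockouts. Hair shaft markers summed to 54 to 232 CPM in unexposed controls and 23.7 to 69 CPM in unexposed knockouts, and to 101 to 457 CPM and 15.4 to 257 CPM after UVB, with 1 of 4 called lower in knockouts each time. Of the 7 keratinocyte markers 1 was called higher in unexposed knockouts, and 1 higher and 2 lower after UVB. Of 3 neutrophil markers tested, 1 was called higher in unexposed knockouts and none after UVB. The part of these markers in the knockout results was not tested.

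**Figure D5:**
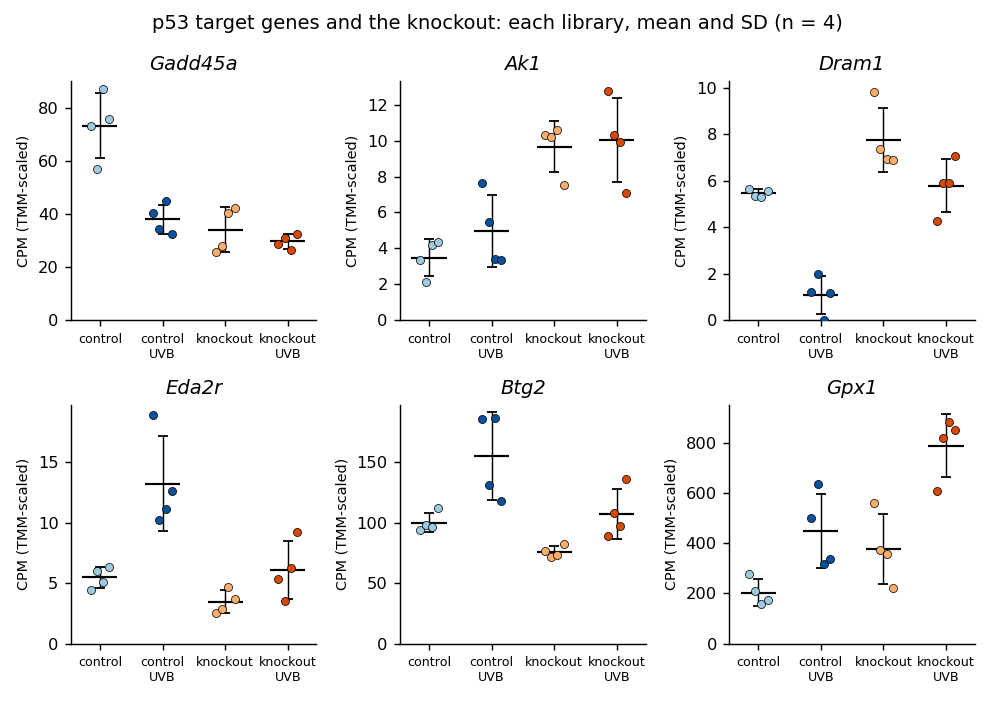
CPM of 6 members in each library (points), with the group mean (line) and SD (bars); each panel has its own linear axis from 0. Gadd45a stands apart in the unexposed controls at 57.1 to 87.0 CPM, and Dram1 in the exposed controls at 0 to 1.97 CPM.

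The third comparison asked whether the UVB response itself differed between the genotypes. None of the 35 members passed in edgeR, and 0.0% of all genes did, with 1043 genes and 2 members at an unadjusted p under 0.05. DESeq2 called 31 genes and limma voom none, with no member among them. The 2 members at an unadjusted edgeR p under 0.05 were Gadd45a and Dram1. The response of Gadd45a was higher in knockouts by 0.75 (SE 0.24, edgeR adjusted p = 0.69). That of Dram1 was higher by 1.88 (SE 0.76, edgeR adjusted p = 0.797). For Tnfrsf10b the difference was -0.07 (SE 0.39), for Phlda3 -0.01 (SE 0.25), for Aen -0.29 (SE 0.32) and for Epha2 -0.23 (SE 0.25). Over all 35 members the fitted difference was positive in 16, with a median of -0.07, and over all genes it was positive in 9692 of 17741, with a median of 0.05. A difference that misses the threshold does not show that the responses were equal.

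Altogether 14 members passed in no comparison: Dcxr, Ddit4, Def6, Ephx1, Fas, Perp, Pidd1, Plk3, Pltp, Polh, Psrc1, Tigar, Triap1 and Zmat3. They include the most abundant member per kb of exon, Perp, with group means of 1510 to 1630 CPM per kb. On the same scale Sfn came next in each group, at 248 to 1050, followed by Gpx1 at 141 to 547 and Plk3 at 105 to 131. Rrm2b was the lowest in 3 groups, at 0.373 to 0.692 CPM per kb, and in exposed controls Dram1 was lowest at 0.359, next to Rrm2b at 0.369. Plk3, Tigar, Pltp and Def6 share exon bases with a gene on the opposite strand. Their counts are uncertain in the same way as those of Gadd45a, Ei24 and Rrm2b. Ephx1 shares 72 exon bases with Gm36961 on the same strand, so its counts are uncertain whether or not counting used strand.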

How the data were processed

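Raw counts per Ensembl gene, whole numbers with different totals per library, were made and deposited by the authors. Per the submitters' processing notes they used FastQC, STAR, HTSeq and DESeq2; not given in the sources used here were versions, genome build and strand use in counting. Per the labels' protocols the kit was NEBNext Ultra Directional, which keeps strand. Of the small counts (the 100 whole numbers from 2 up), 68.8% were even, with no stated reason. From these counts (33.0 to 53.3 M per library), edgeR 4.0.16 (R 4.3.3) was run on the 17741 genes that filterByExpr retained, with TMM scaling. One robust quasi-likelihood fit covered the 16 libraries, each group having its own mean. F tests were two-sided, with Benjamini-Hochberg adjustment across every gene tested and a threshold of 0.05; "rose", "fell" and "called" mean past it. The biological coefficient of variation (common) came to 0.445. An SE is |log2 fold change| divided by the root of F. CPM uses the TMM factors. Symbols, positions and exon lengths come from GENCODE M21 (GRCm38), and promoter windows from RefSeq (GRCm38.p6). Alternatives were DESeq2 1.42.0, limma 3.58.1 voom, upper-quartile factors, no low-count filter, only the 2 groups compared, each library left out, and exposed control library 2 alone. Given with each library's value were, by rule, up to 12 called members with the smallest adjusted p and, chosen after their values were seen, Dram1, Ak1 and Gpx1; others by range. Replicate numbers follow the accession order and pair nothing. The members and lists were chosen with earlier results of these data known.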

Additional observations from a re-analysis of the deposited data

Results flagged for a closer look

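In 7 of the 140 sets of 4 libraries (35 members in 4 groups), 1 library lay far from the other 3. The gap, as a share of the whole range, was above Dixon's critical value. Chance gives about 1 in 20, which is also the share found here. Zmat3 read 50.1 CPM in exposed control library 2 and 34.6 to 36.2 CPM in the other exposed controls, which are the 3 libraries with more even counts and fewer detected genes. Dram1 read 9.79 CPM in unexposed knockout library 1 against 6.87 to 7.36 CPM, and Pltp read 2.32 CPM in the same library against 3.44 to 3.64 CPM. Triap1 read 16.9 CPM in unexposed control library 3 against 27.9 to 28.9 CPM. Ak1 read 7.56 CPM in unexposed knockout library 4 against 10.2 to 10.6 CPM, and remained above all unexposed controls there. In that library mitochondrial transcripts held 10.18% of the counts. Polh read 8.42 CPM in exposed knockout library 1 against 9.16 to 9.20 CPM, and Rps27l read 80.7 CPM in exposed knockout library 4 against 71.0 to 71.7 CPM.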

How the results depend on the processing

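No member that passed a test changed sign under any alternative run. Of 175 gene-by-comparison results 40 were called. Leaving out 1 library ended the call in 36 of the 320 refits of these, touching 12 of the 40, and gave a call to 3 others. The other planned settings ended it in 11 of 200 refits, touching 6 of the 40. With exposed control library 2 alone, 10 of the 24 calls that involve exposed controls were lost, among them all 4 between knockout and control, and 1 was gained. The counts of members that rose after UVB were 14 to 15 (controls) and 9 to 13 (knockouts) with 1 library left out.

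Between knockout and control without UVB, DESeq2 called 2 members higher and 742 genes in all, against 1 and 373 in edgeR. Leaving out 1 library gave 1 to 2 members higher and 134 to 435 genes. After UVB, DESeq2 called 1516 genes against 830 in edgeR. There, 1 member was higher with upper-quartile factors and 1 was lower without the low-count filter. With only the 2 groups fitted, 0 were higher and 0 lower. With exposed control library 2 alone, 0 were higher, 0 were lower and 154 genes were called. Leaving out 1 library gave 0 to 3 higher, 0 to 3 lower and 419 to 1356 genes, the most without exposed control library 2 and the fewest without exposed knockout library 2. The members that fell after UVB in controls numbered 3 with exposed control library 2 alone and 3 to 5 with 1 library left out. For the difference of UVB responses, DESeq2 called 31 genes, the fit without a low-count filter 2, the fit with exposed control library 2 alone 1, and those with 1 library left out 0 to 2. The cause of these shifts was not tested. Split at 30000 bases, long minus short members gave -0.77 in controls and -0.62 in knockouts, against -0.52 and -0.34. Allowing 1 mismatch in each half-site raised the members with a pair from 0 to 3. No paired analysis was possible because replicate numbers follow the accession order and pair nothing. Members at a few CPM, such as Fas, Pltp and Dram1, have wide errors (SE 0.40 to 0.56 in controls after UVB).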
